A study of Sus scrofa with 12 samples.

Results

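The angiopoietin-Tie and apelin systems, with a set of genes that mark sprouting endothelium, were followed in the infarcted pig heart. The 10 genes were ANGPT1, ANGPT2, ANGPT4, TEK, TIE1, APLN, APLNR, ESM1, PLVAP and UNC5B. They were taken by symbol from the 35682 genes in the files, and all 10 were found and passed the filter on low counts. The filter left 13844 genes for testing.

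RNA was sequenced from the hearts of 6 female Yorkshire pigs, with 1 library from the border zone, next to the infarct, and 1 from the remote zone, in the posterior wall, of each animal. Every animal had a balloon occlusion of the left anterior descending artery for 60 min followed by reperfusion, and received tacrolimus at 0.75 mg/kg/day, mycophenolate mofetil at 500 mg/day and prednisolone at 20 mg/day from day 9 after the injury. At thoracotomy on day 14 the animals were given fibrin glue alone or vascular organoids of human smooth muscle and human endothelial progenitor cells. The organoids, fixed with the same glue, were laid on the infarct and the border zone around it. The hearts were taken weeks later. Differences between the zones therefore cannot be told apart from those of local treatment or of wall position. The labels do not give the treatment of each animal, so both zones hold treated and control animals and no comparison between treatments was made. Any reads of human cells that aligned to pig genes cannot be told apart from pig reads.

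Angiopoietins are secreted ligands of TEK, a receptor tyrosine kinase of endothelial cells. ANGPT1, made mostly by mural and other mesenchymal cells, activates TEK and keeps vessels quiet, while ANGPT2, stored and released by endothelial cells, can oppose it. ANGPT4 is a less studied ligand of the same receptor, and TIE1 is a related receptor that binds none of these ligands strongly and modulates TEK. Apelin, the product of APLN, is a peptide ligand of the G protein-coupled receptor APLNR. Tip cells, which lead a growing vessel sprout, are known for APLN, ESM1, a secreted proteoglycan, and UNC5B, a netrin receptor. PLVAP forms the diaphragms of endothelial fenestrae and caveolae.

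Border zone libraries held 15130210 to 30526110 counts each and remote zone libraries 20091415 to 31618680. The cardiac muscle genes and the endothelial genes of the marker lists were present in every library. Their summed levels were at least 12616 CPM (TMM-scaled counts relative to library size) for the 11 cardiomyocyte genes with an identifier and at least 540.0 CPM for the 16 endothelial genes. A pair of libraries stood apart. The border zone library of animal 3622 had the smallest total and counts on 28024 genes, against 16932 to 20148 in the other libraries. It also had counts on 6127 of the 11724 genes that were at 0 in every other library (median count 4, 95th percentile 23). The border zone library of animal 1022 had the highest summed level of matrix genes, 73167 CPM against a border zone median of 9403 CPM, and the lowest of cardiomyocyte genes. In animal 3622 the order of the library names is also the reverse of that in the other 5 animals. The matrix genes were nevertheless higher in the library labelled border zone in this animal, by 1.14 on the log2 scale, as in the other 5.

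Positions are those of the RefSeq annotation of Sscrofa11.1, in which APLNR is on an unplaced scaffold. ANGPT1 is at chr4:29925203-30233434, ANGPT2 at chr15:37544177-37600925 and ANGPT4 at chr17:34345926-34394977. The receptors are at chr1:195938177-196052294 for TEK and chr6:167919662-167947253 for TIE1. APLN is at chrX:106236746-106246563, ESM1 at chr16:34184255-34193877, PLVAP at chr2:60324565-60344450 and UNC5B at chr14:74120055-74208055. Of these, 3 overlap a gene of the other strand, which matters because the libraries did not keep strand. TEK shares 384 bp of exon with LOC102166359, or 5.96% of its exon length. ANGPT2 lies inside MCPH1 and ANGPT4 spans the noncoding gene LOC110257400, each with 0 bp of shared exon.

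The comparison of the border zone with the remote zone asks where in the injured heart these vessel genes differ. ANGPT4 was the member that passed the test, at 10.02-fold higher in the border zone (log2 fold change 3.33, SE 0.61, Benjamini-Hochberg adjusted p = 0.0276 by the quasi-likelihood test of edgeR). Thus 1 of the 10 members was called, against 2.07% of all genes tested (2.06% higher in the border zone). No member had border libraries that all lay above or all below the remote libraries, beside 2.69% of all genes (1.99% with the border zone above). In all, 94 genes, or 0.679% of those tested, had a larger log2 fold change. PLVAP (1.26, SE 0.37) and ESM1 (1.0, SE 0.42) had the next largest log2 fold changes and missed the threshold, with adjusted p = 0.0803 and 0.165 in the same fit. The other 7 members had log2 fold changes between -0.25 and 0.55, each within 1.5 times its standard error.

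The log2 fold change was above 0 for 9 members and below 0 for APLN, which turned to 0.04 when counts were scaled by library totals alone. The median over the members was 0.30, beside 0.04 over all genes tested. With the animal number as a replicate block, which compares the zones within animals, no member passed in edgeR, against 0.296% of all genes. In that fit 3 members had an unadjusted p under 0.05, as had 29.4% of all genes. DESeq2, without the block, called 2 members and 10.3% of the 16688 genes to which it gave an adjusted p.

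**Figure D1:**
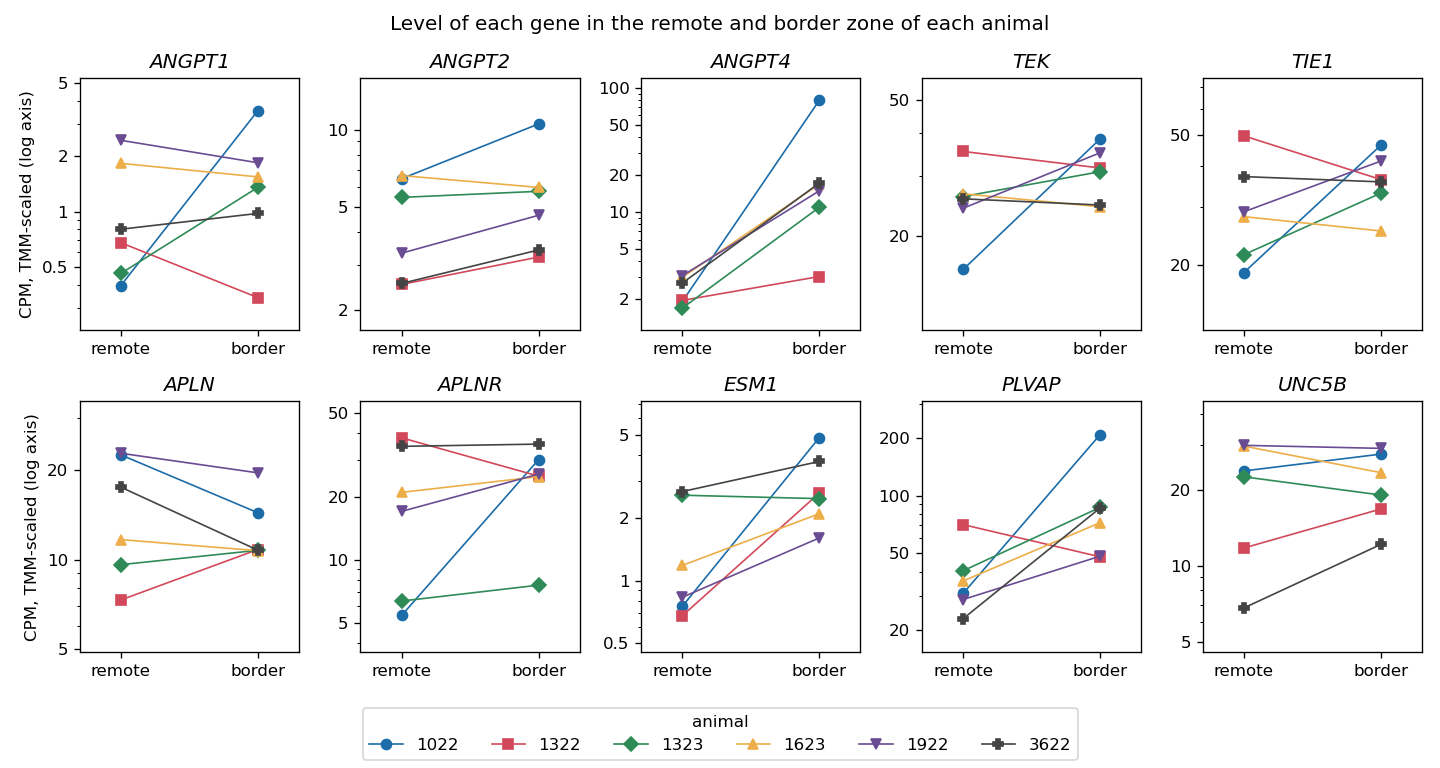
Level of each of the 10 genes in the remote and the border zone of the 6 animals, as TMM-scaled CPM on log axes whose ranges differ between panels. Each line joins both libraries of 1 animal. ANGPT4 climbs in every animal, from 1.68 to 3.07 CPM in the remote zone to between 3.02 and 79.6 CPM in the border zone, whereas ANGPT1, TEK, TIE1 and UNC5B each have lines that climb in 3 animals and fall in the other 3.

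Among the ligands, ANGPT4 had between 1.68 and 3.07 CPM in the remote zone, with a median of 2.31. In the border zone it had 79.6 CPM in animal 1022, 17.1 in animal 3622, 16.8 in animal 1623, 14.8 in animal 1922, 10.9 in animal 1323 and 3.02 in animal 1322. The remote libraries were close together while the border libraries spread 26.4-fold, and the zones overlapped only through animal 1322, whose border value lay just under the highest remote value. These levels rest on 40 to 78 counts per remote library and 62 to 2409 per border library.

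Within animals, the border zone exceeded the remote zone by 41.9-fold in animal 1022 and 1.56-fold in animal 1322. In the other 4 animals the ratio was between 4.83 and 6.50. ANGPT4 was higher in 6 of 6 animals, by a mean of 2.66 ± 1.52 on the log2 scale (SD, n = 6), and the two-sided exact permutation test of sign changes gave p = 0.03125, the smallest that 6 animals allow. Of all genes tested, 11.7% were higher in the border zone of every animal.

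The call of ANGPT4 depended on the fit. With the replicate block its log2 fold change was 2.68 (SE 0.52, adjusted p = 0.0679 by edgeR). Without the border zone library of animal 1022 it was 2.40 with adjusted p = 0.00443, and without that of animal 3622 it was 3.40 with adjusted p = 0.0429. Leaving out both libraries of animal 1323, 1623, 1922 or 3622 gave log2 fold changes from 3.36 to 3.51 with adjusted p between 0.0729 and 0.106 by edgeR, while the call held without animal 1022 (2.34) or animal 1322 (3.49).

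ANGPT1 was the ligand with the fewest counts, from 7 to 107 per library. It had 0.341 to 3.54 CPM in the border zone (median 1.45) and 0.396 to 2.44 CPM in the remote zone (median 0.740), so the zones overlapped almost entirely. It was higher in 3 of 6 border zones, most in animal 1022 at 8.93-fold, and lower in the border zone of animals 1322, 1623 and 1922. Its log2 fold change of 0.55 (SE 0.56, adjusted p = 0.568 by edgeR) became -0.03 without animal 1022 and 0.15 without its border zone library alone. The 16 counts of ANGPT1 in the border zone library of animal 3622 are within the range of counts which that library had on genes at 0 in the others.

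The endothelial ligand ANGPT2 missed the threshold. Its level was 3.21 to 10.5 CPM in the border zone (median 5.21) and 2.52 to 6.64 CPM in the remote zone (median 4.40), and in both zones animals 1022, 1323 and 1623 were above 5 CPM while the other 3 animals were below. It was higher in 5 of 6 border zones, by 1.06 to 1.63-fold, with animal 1623 at a ratio of 0.900. The mean difference was 0.31 ± 0.30 on the log2 scale (SD, n = 6, exact permutation test, p = 0.09375), and the log2 fold change was 0.31 (SE 0.34, adjusted p = 0.602 by edgeR). It was 0.03 (SE 0.31) without the border zone library of animal 1022.

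The balance of the ligands was read as log2 ratios of CPM within a library, whose changes between zones are given without a test. The ratio of ANGPT2 to ANGPT1 was higher in 4 of 6 border zones, with differences from -2.22 in animal 1022 to 1.19 in animal 1322. The ratios of ANGPT4 to the other 2 angiopoietins were looked at after the levels had been seen. That to ANGPT1 was higher in the border zone of every animal, by a median of 2.40. It was 2.87 to 4.46 in the border zone against 0.32 to 2.05 in the remote zone. That to ANGPT2 was also higher in every animal, by 0.28 in animal 1322 to 4.63 in animal 1022, and the zones overlapped, with -0.09 to 2.91 in the border zone against -1.72 to 0.07 in the remote zone.

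Neither angiopoietin receptor passed the test. TEK had 24.4 to 38.5 CPM in the border zone (median 31.3) and 16.0 to 35.4 CPM in the remote zone (median 25.9). TIE1 had 25.4 to 46.5 CPM in the border zone (median 36.2) and 18.9 to 49.7 CPM in the remote zone (median 28.6). Both were higher in the border zone of the same 3 animals, 1022, 1323 and 1922, and lower in that of the other 3. Their log2 fold changes were 0.27 (SE 0.18) and 0.25 (SE 0.23), with adjusted p = 0.387 and 0.523 by edgeR. Without animal 1022 they were 0.08 (SE 0.16) and 0.06 (SE 0.22), and without its border zone library alone 0.19 (SE 0.18) and 0.16 (SE 0.23). The ratio of TIE1 to TEK moved by -0.28 to 0.39 on the log2 scale between the zones and was higher in 3 of 6 border zones.

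In bulk tissue, fewer endothelial cells and less RNA per cell cannot be told apart, so each member was also set against the mean log2 CPM of the 16 pan-endothelial genes. That mean itself was higher in 3 of 6 border zones, with differences from -0.52 in animal 1322 to 0.96 in animal 1022. Against it, TIE1 was higher in 6 of 6 border zones by 0.08 to 0.34, and TEK in 5 of 6 by up to 0.36. ANGPT4 was higher in 6 of 6 animals by 1.14 to 4.37. PLVAP and ESM1 were each higher in 5 of 6, with median differences of 1.04 and 0.87, while UNC5B and APLN were higher in 2 of 6.

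Apelin and its receptor did not pass the test in either direction. APLN had 10.7 to 19.6 CPM in the border zone (median 10.8) and 7.31 to 22.8 CPM in the remote zone (median 14.6). It was lower in 4 of 6 border zones, most in animal 3622 at a ratio of 0.614 and animal 1022 at 0.639, and higher in animals 1322 and 1323. Its log2 fold change was -0.25 (SE 0.29, adjusted p = 0.624 by edgeR), and it was -0.14 (SE 0.31) without animal 1022 and -0.15 (SE 0.32) without animal 3622. In 4 of the 6 border libraries it stood between 10.7 and 10.8 CPM, though the same animals ranged from 7.31 to 17.5 CPM in the remote zone.

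APLNR had 7.56 to 35.6 CPM in the border zone (median 25.3) and 5.42 to 38.1 CPM in the remote zone (median 19.0). It was low in both libraries of animal 1323, at 7.56 and 6.35 CPM, and in the remote library of animal 1022, at 5.42 CPM, against 30.0 CPM in the border library of that animal. The border zone was higher in 5 of 6 animals, by 1.03 to 5.53-fold, and animal 1322 had a ratio of 0.657. The log2 fold change was 0.28 (SE 0.47, adjusted p = 0.748 by edgeR), and it was 0.15 (SE 0.50) without the border zone library of animal 3622 and 0.21 (SE 0.50) without that of animal 1022. Without both libraries of animal 1022 it was 0.01 (SE 0.45), and the mean difference within animals went from 0.49 to 0.10 on the log2 scale. The log2 ratio of APLN to APLNR was lower in 5 of 6 border zones, with a median difference of -0.55.

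The diaphragm gene PLVAP came nearest to the threshold of those that missed it. Its CPM was 47.9 to 208.1 in the border zone (median 79.2) and 22.8 to 70.6 in the remote zone (median 33.4). The border zone was higher in 5 of 6 animals, by 1.68-fold in animal 1922 to 6.74-fold in animal 1022, and the remote library of animal 1322 was above its border library, at a ratio of 0.679. The mean difference was 1.16 ± 1.12 on the log2 scale (SD, n = 6, exact permutation test, p = 0.0625). Without animal 1322 PLVAP passed the threshold (log2 fold change 1.65, adjusted p = 0.0361 by edgeR), as it did in DESeq2 (1.20, adjusted p = 0.0233), and without animal 1022 the log2 fold change was 0.78 with adjusted p = 0.210 by edgeR.

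ESM1 had 1.60 to 4.86 CPM in the border zone (median 2.55) and 0.678 to 2.67 CPM in the remote zone (median 1.01), from 14 to 147 counts per library. It was higher in 5 of 6 border zones, by 1.39-fold in animal 3622 to 6.46-fold in animal 1022, and animal 1323 had a ratio of 0.963. The high remote values were those of animals 1323 and 3622. The mean difference was 1.08 ± 0.95 on the log2 scale (SD, n = 6, exact permutation test, p = 0.0625). Without animal 1022 the log2 fold change was 0.65 with adjusted p = 0.471 by edgeR.

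UNC5B did not separate the zones. It had 12.2 to 29.2 CPM in the border zone (median 21.2) and 6.82 to 30.0 CPM in the remote zone (median 23.1), and animals 3622 and 1322 had the lowest values of each zone. It was higher in 3 of 6 border zones and its log2 fold change was 0.04 (SE 0.33, adjusted p = 0.954 by edgeR), with a change of sign to -0.05 without the border zone library of animal 1022 and a value of 0.16 without that of animal 3622.

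**Figure D2:**
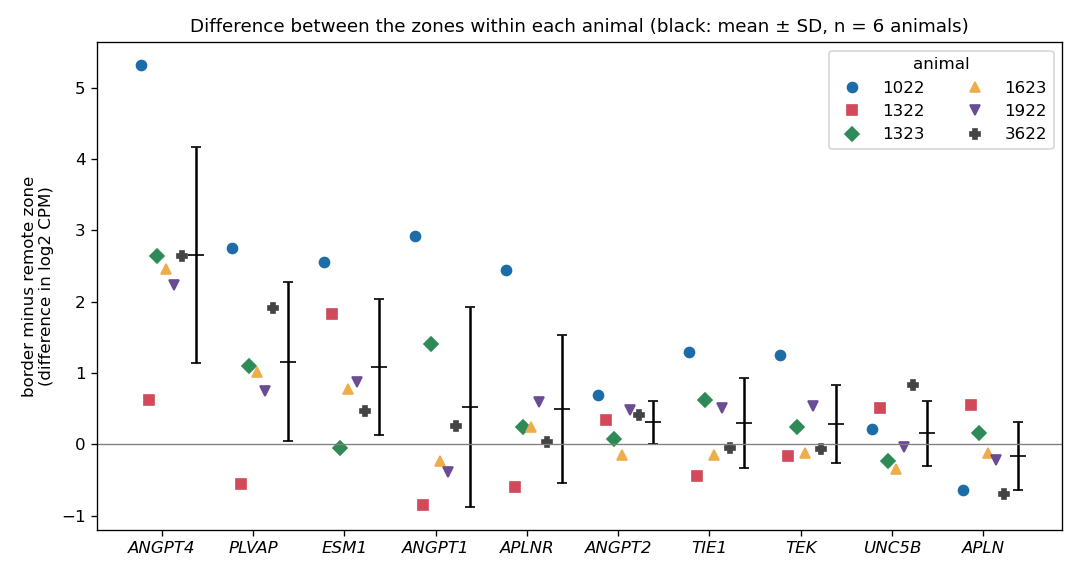
Border zone minus remote zone in log2 CPM for each gene, with 1 point per animal, genes ordered by their mean, and the mean with SD (n = 6 animals) in black. All 6 points of ANGPT4 lie above 0, from 0.62 to 5.33, while the points of the other genes fall on both sides of it. Animal 1022 gives the highest point of 8 genes.

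Levels were compared between genes only per length, as CPM per kilobase of RefSeq exon. The counts were made on Ensembl gene models, whose lengths may differ. In the remote zone PLVAP was highest, with a median of 13.7, and its range overlapped that of APLNR (median 5.10) only slightly. APLNR, APLN, TEK, UNC5B and TIE1 followed with medians of 5.10 down to 2.60, and neighbours in this order overlapped. Below a gap came ANGPT2, ESM1, ANGPT4 and ANGPT1, with medians of 0.461, 0.366, 0.351 and 0.137, which again overlapped. In the border zone PLVAP (median 32.6) was apart from all others. ANGPT4, with a median of 2.40 and a range of 0.459 to 12.1, ranked seventh, next to UNC5B and above ESM1, ANGPT2 and ANGPT1.

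**Figure D3:**
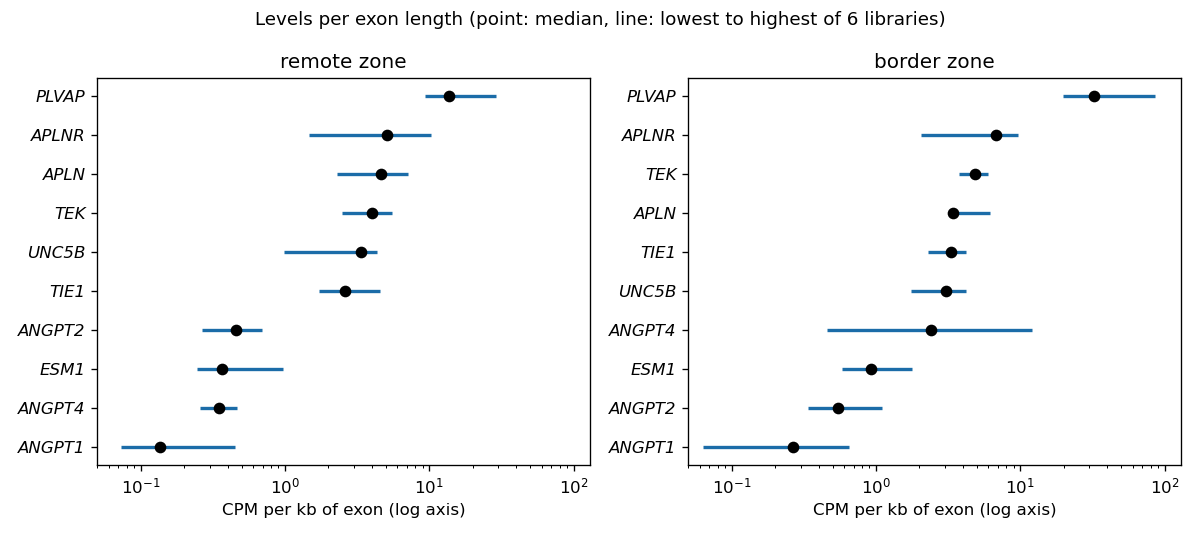
CPM per kilobase of RefSeq exon on a log axis for the 10 genes in the remote and the border zone, with the median as a point and a line from the lowest to the highest of 6 libraries. The range of ANGPT4 is 0.255 to 0.467 in the remote zone and 0.459 to 12.1 in the border zone.

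The members did not move as 1 group across the libraries. The following correlations are Pearson's r of log2 CPM over 12 libraries, of which each animal gave 2, and are descriptions without a test. TEK and TIE1 had the highest r of any pair, at 0.84, followed by ANGPT4 with PLVAP at 0.81 and TIE1 with APLNR at 0.77. ANGPT2 with UNC5B had 0.70. APLN with PLVAP and TEK with APLN had the lowest, at -0.43 and -0.41.

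The genes with the closest pattern to each member over the same libraries differed by member. TEK was closest to ETS1, an endothelial transcription factor (r = 0.94), and to RFLNB and CLEC14A, an endothelial surface protein (0.91 and 0.90). TIE1 was closest to PDGFB, the endothelial ligand that recruits mural cells (0.95), to CHST15 and to CARD10. ANGPT4 was closest to ARMCX2 and ADAMTS2, the protease that trims procollagen (both 0.98), and PLPPR2 (0.98). ADAMTS2 had a log2 fold change of 2.52 (adjusted p = 0.0253 by edgeR). PLVAP was closest to ADAM28 (0.97), SRGAP3 (0.95) and SESN2 (0.95), and ESM1 to CNN1, a smooth muscle protein (0.91), FAM180A and REXO2. ANGPT1 was closest to GRIA4 (0.91), ANGPT2 to ABHD3 (0.94), APLN to TECPR2 (0.92), APLNR to AATF (0.93) and UNC5B to GNA12 (0.97).

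Marker lists of other cell types differed in how many genes passed the test. For reading the counts at an unadjusted p under 0.05 in edgeR, 24.7% of all genes tested were under that value. In the list of fibroblast and matrix genes, all 16 had a log2 fold change above 0 and an unadjusted p under 0.05, and 12 passed the test, of which POSTN, named here after its value was seen, also passed with the block (adjusted p = 0.0410 by edgeR). Their summed level was 3537 to 73167 CPM in the border zone against 1291 to 3011 CPM in the remote zone. All 15 macrophage genes had a log2 fold change above 0, 14 had an unadjusted p under 0.05 and 1 passed, LYZ, named here after its value was seen, whose adjusted p was 0.0404 by edgeR and 0.0814 with the block. The list had summed levels of 192.7 to 1974 CPM against 174.4 to 339.8 CPM. Of 13 smooth muscle and pericyte genes tested, 9 had a log2 fold change above 0 and 0 passed in edgeR, although 9 had an unadjusted p under 0.05. Their summed level was 806.3 to 3679 CPM against 540.3 to 873.3 CPM. All 11 cardiomyocyte genes had a log2 fold change below 0 and none passed, with 3 at an unadjusted p under 0.05 in edgeR. The lymphatic, lymphocyte and cell division lists had 0 calls among 7, 6 and 4 genes tested in edgeR, with 1, 2 and 3 at an unadjusted p under 0.05. No gene of these lists was at 0 in every library.

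Set after the values had been seen beside the matrix genes, ANGPT4 had differences of a like order between the zones. In animals 1022, 1322, 1323, 1623, 1922 and 3622 the matrix mean was higher in the border zone by 4.18, 0.94, 1.80, 1.73, 2.05 and 1.14 on the log2 scale, and ANGPT4 by 5.33, 0.62, 2.64, 2.46, 2.24 and 2.64. ANGPT4 thus rose by more than the matrix mean in 5 of 6 animals and by less in animal 1322. It rose by more than the smooth muscle and pericyte mean in 6 of 6 animals. That mean mixes directions, as 9 of its 13 genes had a log2 fold change above 0. RGS5, KCNJ8, ABCC9 and NDUFA4L2 had -0.22, -0.32, -0.15 and -0.41. ANGPT1, ANGPT2, TEK, TIE1, APLN, APLNR and UNC5B each stood lower against the matrix mean in all 6 border zones. The part of scar tissue, or of any cell type, in the result for ANGPT4 was not tested.

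Within each zone, members were set beside the same lists, again as a description without a test. TIE1 had r = 0.96 with the pan-endothelial mean over the 6 border libraries and 0.97 over the 6 remote libraries. These values were 0.70 and 0.88 without the 2 libraries of each zone farthest from the median of that mean. ANGPT4 had r = 0.94 with the matrix mean in the border zone and 0.40 in the remote zone. In the border zone it also had r = 0.92 with the smooth muscle and pericyte mean, 0.86 with the macrophage mean and -0.89 with the cardiomyocyte mean. The border libraries of animals 1022 and 1322 were farthest from the median for matrix, smooth muscle and cardiomyocytes. Without them, r of ANGPT4 over 4 libraries was -0.41 for matrix, 0.23 for smooth muscle and 0.04 for cardiomyocytes. These values thus depended on those 2 libraries. Over the same 4 libraries it was 0.22 for macrophages. For macrophages the farthest were 1022 and 1922, without which r was 0.97, so that value changed with the libraries left out. Other members also had a high r with the matrix mean in the border zone, at 0.94 for ANGPT2, 0.91 for ANGPT1 and 0.87 for PLVAP. Without the libraries of animals 1022 and 1322 these were 0.82, 0.95 and -0.60. The rest of the members had 0.11 to 0.61 over the 6 border libraries. PLVAP had 0.96 with the macrophage mean there, and 0.78 without the 2 farthest libraries.

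**Figure D4:**
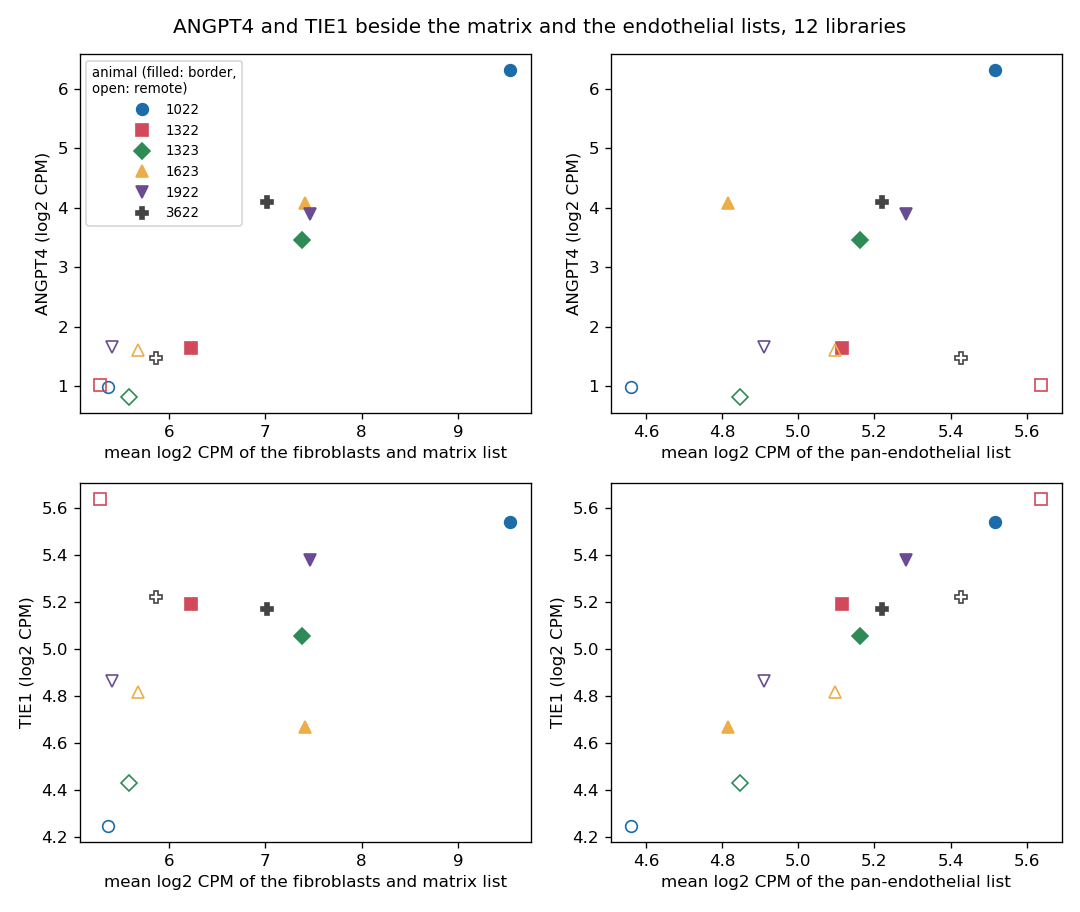
Log2 CPM of ANGPT4 and of TIE1 against the mean log2 CPM of the fibroblast and matrix list and of the pan-endothelial list, with filled symbols for the 6 border libraries and open symbols for the 6 remote libraries. TIE1 lies along the endothelial mean in both zones, whereas the border libraries of ANGPT4 lie above the remote ones at like endothelial means, except that of animal 1322.

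Other genes of these pathways are read against the 2.07% of all genes called and the 24.7% at an unadjusted p under 0.05. Of 17 genes of TEK regulation and signalling tested, 14 had a log2 fold change above 0 and 0 passed in edgeR, with 4 at an unadjusted p under 0.05. The largest changes were those of DOK2, an adaptor that binds TEK (1.60, SE 0.55, adjusted p = 0.113), SVEP1, a matrix protein that binds TIE1 (1.20, SE 0.36, adjusted p = 0.0824), and ITGB1, an integrin subunit (0.77, SE 0.25, adjusted p = 0.0939), all by edgeR. SVEP1 had 12.1 to 73.6 CPM in the border zone against 9.54 to 14.1 CPM in the remote zone, and was higher in 6 of 6 border zones. The fourth of the 4 genes, GRB14, named here after its value was seen, went the other way (-0.55, SE 0.23, adjusted p = 0.162 by edgeR). GRB14 had 9.71 to 34.2 CPM in the border zone against 34.4 to 39.1 CPM in the remote zone, and was higher in 0 of 6 border zones. Its zones did not overlap, as for 2.69% of all genes.

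Of 8 genes of apelin processing and signalling, 6 had a log2 fold change above 0 and 0 passed in edgeR, with 3 at an unadjusted p under 0.05. MME, a peptidase, had -0.68 (SE 0.38), ARRB1, an arrestin, 0.67 (SE 0.30) and PRCP, a carboxypeptidase, 0.61 (SE 0.25). Of the 7 caveolar genes, which share their organelle with PLVAP, 0 passed in edgeR and 0 had an unadjusted p under 0.05. The log2 fold changes of CAVIN3, EHD2 and CAV2 were 0.60, 0.57 and -0.21.

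Of 25 other tip cell genes tested, 23 had a log2 fold change above 0, with a median of 0.45, 9 were at an unadjusted p under 0.05 and 1 passed. This was SPARC, a collagen-binding matrix protein made by many mesenchymal cells as well, which rose by 2.90 (SE 0.59, adjusted p = 0.0320 by edgeR, and 0.0829 with the block). Of 11 netrin and UNC5 partners tested, 10 had a log2 fold change above 0, with a median of 0.79, 6 were at an unadjusted p under 0.05 and 2 passed. NTN3, a netrin, rose by 2.40 (SE 0.47, adjusted p = 0.0276 by edgeR, and 0.0753 with the block). It had 0.198 to 0.669 CPM in the remote zone and 0.73 to 3.93 CPM in the border zone. Its remote median of 0.474 CPM was under the 0.740 CPM of ANGPT1, the member with the fewest counts. FLRT2, a membrane protein that can bind UNC5 receptors, rose by 1.70 (SE 0.35, adjusted p = 0.0320 by edgeR, and 0.0679 with the block), from 2.87 to 6.26 CPM to 5.84 to 30.3 CPM. Both were higher in 6 of 6 border zones. In the same comparison the pan-endothelial list had 11 of 16 genes with a log2 fold change above 0, a median of 0.12 and 0 calls, with 1 of the 16 at an unadjusted p under 0.05 in edgeR. The log2 fold changes of TAL1, a transcription factor, CLDN5, a tight junction protein, and ENG, a co-receptor of the TGF-beta family, were 1.26 (SE 0.57), -0.50 (SE 0.31) and 0.39 (SE 0.28).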

How the data were processed

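Both zones of 6 animals were measured in 12 libraries. The authors aligned reads with STAR to Sscrofa11.1, counted them on Ensembl genes with featureCounts, and deposited raw counts per gene without normalization. How featureCounts treated multiply aligned reads is not given in the sources used here. Zone and animal came from the sample titles. Symbols were paired with 15623 of 35682 identifiers, and exon lengths came from RefSeq.

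Counts were filtered with filterByExpr, scaled by TMM and tested with edgeR 4.0.16 (quasi-likelihood, robust, zone as the only term) in R 4.3.3. Standard errors were derived from F (absolute log2 fold change divided by its square root). DESeq2 1.42.0 was an alternative. Log2 CPM used a prior count of 2. Within-animal differences had a two-sided exact permutation test over sign changes, with 10 members tested and no adjustment over them. With 6 animals, p cannot go below 0.03125. Python 3.11.15 was used for the rest. Precision follows the counts given, and counting error is the only error they cover, as copies made by PCR were not marked.

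The members and the gene lists were chosen with earlier results of these data known. The named genes were all members, up to 3 genes of each pathway list that passed the threshold or else had the largest log2 fold changes, and the 3 genes most like each member, of which 1 to 3 are named.

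The 2 libraries with the same number are from the same animal. For that reason they were paired in the within-animal differences and in the fit with the replicate block. They were not paired in the main edgeR fit or in DESeq2. Across genes, the deviations of such a pair from their zone means had an average r of 0.35, with 4 of 6 pairs over 0.1. No pair of libraries was within sampling noise of another, and the smallest chi-square per gene among 66 pairs was 26.3. On simulated data for this comparison (13701 genes, 200 changed), 85.0% of 4-fold and 31.0% of 2-fold changes were recovered, and 5 unchanged genes were called. The simulated counts were drawn independently for each gene and library, with no shift shared within an animal or a library. These shares therefore need not hold for the real libraries.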

Additional observations from a re-analysis of the deposited data

Results flagged for a closer look

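In the 10 genes and both zones, 20 groups of 6 libraries were examined for a library whose gap to its nearest neighbour is large beside the range of its group, on the log2 CPM scale. Chance sets apart about 1 in 20 such groups, and 1 was found here. The level of APLNR in the border zone of animal 1323 was 7.56 CPM, against 24.9 CPM in the next border library. The remote library of the same animal had 6.35 CPM. The gap was 0.769 of the range on the log2 scale, past Dixon's critical value, and 0.619 on the CPM scale, just short of it. On the CPM scale, looked at after the data were seen, the libraries past it were instead the highest ones of ANGPT4 (79.6 CPM, animal 1022) and PLVAP (208.1 CPM, animal 1022) in the border zone and of PLVAP in the remote zone (70.6 CPM, animal 1322).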

How the results depend on the processing

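Between the zones, 287 genes and 1 member (ANGPT4) passed the threshold. With the animal number as a replicate block these were 41 genes and 0 members, with the DESeq2 Wald test 1724 and 2, with library totals 1551 and 2, with no filter 139 and 0, with at least 10 counts in every library 149 genes, and without the border zone library of animal 3622 156 genes. Leaving out 1 animal at a time, the counts ranged from 0 to 519 genes (0 without animal 1623 or 3622, with 2662 and 2448 genes at an unadjusted p under 0.05 in edgeR, and 519 without 1322) and from 0 to 2 members. In those settings the second member was PLVAP. Scaling by library totals shifted the centre of all log2 fold changes from 0.04 to 0.32, and turned APLN to 0.0358 in the fit and to 0.14 as a mean difference within animals. ESM1 within animals reached p = 0.03125 (exact permutation test) with library totals. ANGPT4 kept its direction in all 14 alternatives, from 2.34 to 3.73, and passed in 8, with adjusted p from 1.11e-06 to 0.106 by edgeR and DESeq2. UNC5B, near 0, became -0.0037 with no filter and -0.0459 without the border zone library of animal 1022, and lay between -0.0177 and 0.16 with each animal left out. ANGPT1 lay between -0.0261 and 0.90. The block turned no other member and changed no other member's call. Within animals, 5 animals allow no p below 0.0625. The cause of these changes was not tested. Counts were lowest for ANGPT1, from 7 to 107 per library, and ESM1, from 14 to 147.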
